A study of Mus musculus with 23 samples.

Results

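Messenger RNA of 8 genes of the cytokine signalling route that runs through STAT5 was followed across sorted mouse CD4+ T cells: the transcription factor genes Stat5a, Stat5b, Stat3 and Stat6, and the feedback inhibitor genes Socs1, Socs2, Socs3 and Cish. They were found by symbol in the annotation of the Affymetrix M430v2 array, which names 18193 genes by at least 1 probe set of their own. The 8 genes have 21 such probe sets, with 2 for Stat5a, 2 for Stat5b, 4 for Stat3, 2 for Stat6, 1 for Socs1, 6 for Socs2, 3 for Socs3 and 1 for Cish, and 19 of the 21 were bright enough to be tested. Each gene was read from its brightest probe set, by the mean of the 23 arrays, and all 8 genes were tested.

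Cytokines such as interleukin-2 bind receptors whose Janus kinases phosphorylate STAT proteins, which then enter the nucleus and switch genes on. Stat5a and Stat5b encode the close relatives that carry the interleukin-2 signal, which regulatory T (Treg) cells need to keep the transcription factor Foxp3. SOCS proteins and CIS, the product of Cish, are made in answer to the signal and damp it at the receptor or kinase.

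The 23 arrays form 9 groups of 2 to 4, and each array holds RNA pooled from several male mice (per the labels) aged 6 to 10 weeks. C57BL/6-Foxp3/GFP reporter mice, pooled 4 to 6 per array, gave 5 groups of 2 arrays. The lamina propria (LP) of their small intestine yielded LP Treg (GFP+) and LP Tconv (GFP-) cells. GFP+ cells of their peripheral lymph nodes (LN) were split by the integrin CD103 and the receptor Klrg1, and carried neither (CD103-Klrg1-), the integrin alone (CD103+Klrg1-) or both (CD103+Klrg1+). The homeostatic groups, of 3 arrays each, began as GFP- CD4+ cells of BDC2.5/NOD/Foxp3-GFP donors, which carry a transgenic T cell receptor, and were recovered as Foxp3+ (GFP+) or Foxp3- (GFP-) cells from spleen and lymph nodes of NOD RAG-/- hosts, which lack lymphocytes of their own, 14 days later, from 2 to 3 mice per array. The DEC groups began as CD4+CD25- cells of HA6.5/Thy1.2/RAG-/-/Balb/c mice moved into Balb/c mice that received 1 injection of DEC-HA peptide (50 ng per mouse), and were recovered after 3 weeks as CD25+ (3 arrays) or CD25- (4 arrays) cells from 5 to 10 mice per array. The DEC cells were sorted by CD25 and not by Foxp3, and strain, T cell receptor and host differ between the systems together with the treatment. All groups were sorted as CD3+ cells negative for B220, CD8a and CD11b/c. Levels below are log2 intensities and, for groups, their mean with the standard deviation (SD) between arrays. A bulk level cannot tell fewer expressing cells from less RNA per cell.

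Some arrays stand apart. Genes of CD4+ T cells were above the filter on low values in every group. The summed intensity of 9 such genes was 12521 in DEC CD25- replicate 3, against 19398 to 35373 on the other arrays. That of 6 B cell genes was 1343 to 3870 on lymph node arrays and 777 to 855 on LP Treg arrays. Of these, 5 were above the filter in each lymph node subset and 4 in LP Treg cells. The part of B cells in any comparison of LP Treg with lymph node cells was not tested. Xist, which is expressed from the inactive X chromosome of female cells, lay at 11.85 to 13.25 on the 7 DEC arrays and at 6.47 to 7.67 on the 16 others, against the male label of the DEC arrays. DEC CD25- replicates 3 and 4 were the dimmest arrays (median intensities 68.5 and 63.7, the highest of all being 81.1), and replicate 3 had the steepest Gapdh 3′-to-5′ difference, 6.59 on the log2 scale against 1.63 to 3.92 on the others. The summed intensity of 13 myeloid and dendritic cell genes was 3579 to 11494 in homeostatic Foxp3+ arrays, 6146 to 18425 in homeostatic Foxp3- arrays, 2307 to 5656 in DEC CD25+ arrays and 1155 to 2988 in DEC CD25- arrays.

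Across the 9 groups, Socs2 had the widest range of levels among the 8 genes, followed by Socs3. The group means of Socs2 spanned 3.01 on the log2 scale, more than those of 95.9% of the genes tested, and those of Socs3 spanned 2.61, more than 93.7%. Stat5a spanned 1.64, Cish 1.00, Socs1 0.96, Stat5b 0.91, Stat3 0.78 and Stat6 0.60. The range of Socs2 ran between Foxp3+ or CD25+ cells and their partners, whereas those of Socs3 and Stat5a ran between the DEC arrays and the rest.

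**Figure D1:**
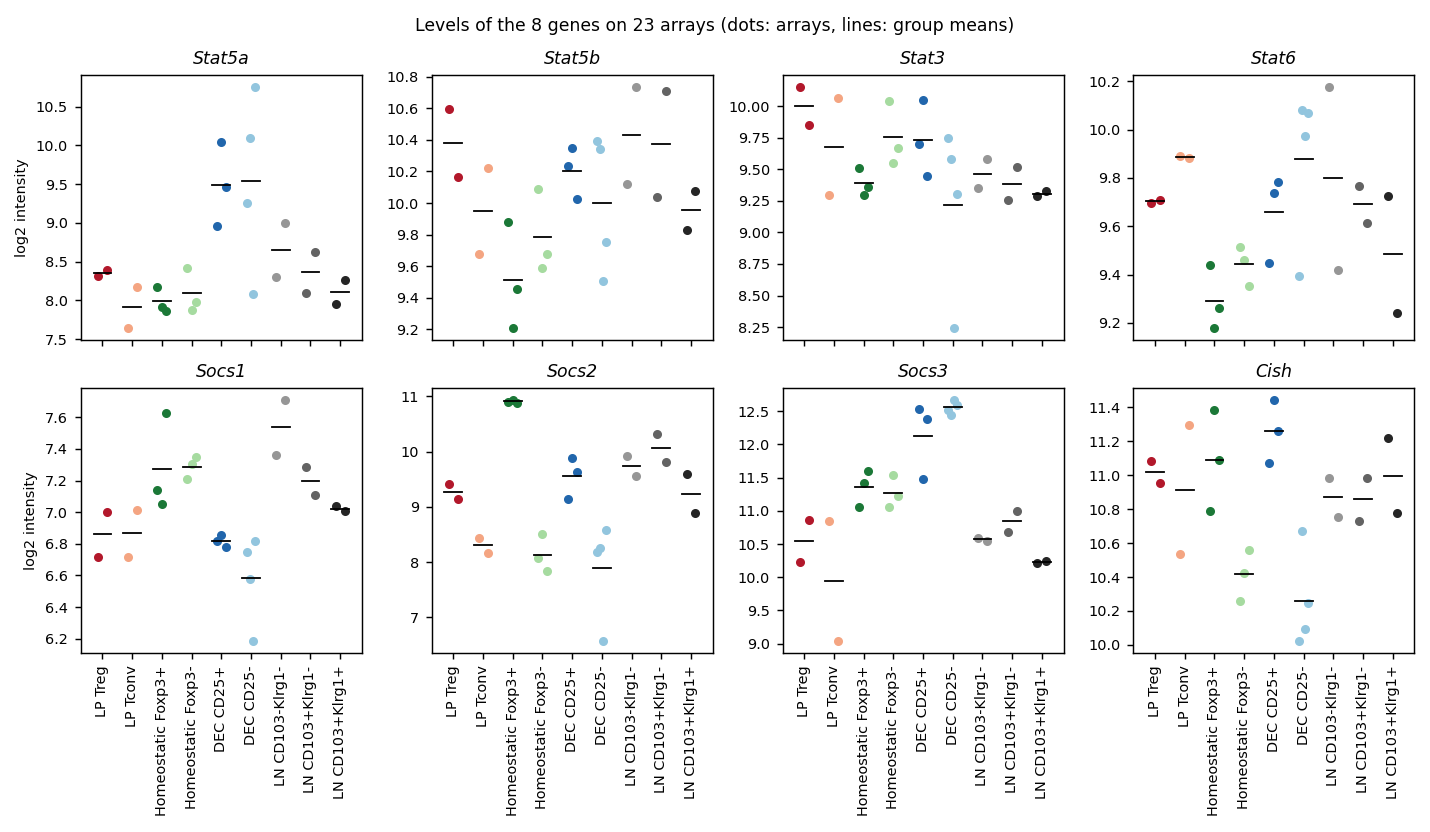
Log2 intensity of each of the 8 genes (its brightest probe set) on every array, by group; dots are arrays, black lines are group means, and each panel has its own vertical scale. Socs2 peaks at 10.91 in homeostatic Foxp3+ cells, Socs3 and Stat5a are highest in the DEC groups, and Stat6 spans only 0.60 between group means.

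For the signal transducers no difference was shown between Foxp3+ or CD25+ cells and their partners. None of Stat5a, Stat5b, Stat3 and Stat6 passed the test in the LP, homeostatic or DEC comparison (limma, Benjamini-Hochberg adjusted p from 0.393 to 1.00), and the intervals are too wide to show equal levels.

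Stat5a was at 8.96, 10.04 and 9.47 in DEC CD25+ cells and at 9.25, 10.09, 8.08 and 10.76 in DEC CD25- cells. Elsewhere it lay between 7.64, in an LP Tconv array, and 9.0, in an LN CD103-Klrg1- array. Thus 5 of the 7 DEC arrays were above all 16 others, and the DEC groups overlapped each other. Their difference was -0.06 ± 0.43 (standard error, SE), with a 95% interval from -0.97 to 0.86. No test was planned between the DEC arrays and the others, which differ in strain, host, treatment and Xist level, and these cannot be told apart. The other Stat5a probe set, at 4.01 to 5.75, was too dim to be tested.

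Stat5b, which sits beside Stat5a in the genome (GRCm38.p6, chr11:100780731-100859004, with Stat5a at chr11:100859351-100885169 and Stat3 at chr11:100886806-100939594), was not set apart on the DEC arrays. It was at 10.23, 10.35 and 10.02 in DEC CD25+ arrays and at 10.39, 10.34, 9.50 and 9.76 in DEC CD25- arrays, inside the range of the 16 others, 9.21 to 10.74. Its lowest mean was that of homeostatic Foxp3+ cells, 9.52 ± 0.34 (SD, n = 3), and its highest that of LN CD103-Klrg1- cells, 10.43 ± 0.43 (n = 2). The homeostatic Foxp3+ and Foxp3- arrays overlapped, with a difference of -0.27 ± 0.27 (SE).

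Stat3, the factor that answers interleukin-6 and interleukin-21, was highest in LP Treg cells, at 10.15 and 9.85, and lowest in DEC CD25- cells, at 9.75, 9.58, 8.24 and 9.31. The value of 8.24 came from replicate 3, the array with the steep Gapdh difference. In the homeostatic system the Foxp3+ arrays, at 9.51, 9.29 and 9.36, lay below the Foxp3- arrays, at 10.04, 9.55 and 9.67, by 0.37 (log2 fold change -0.37 ± 0.30), which did not pass the test (limma adjusted p = 1.00). The order of groups depended on the probe set. LN CD103+Klrg1+ cells were lowest on 1424272_at and 1426587_a_at, and LP Tconv cells highest on the latter. On 1459961_a_at homeostatic Foxp3- cells were lowest, at 8.45 ± 0.53 (SD, n = 3), and DEC CD25- cells were at 10.02 ± 0.48 (n = 4).

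Stat6, the factor of interleukin-4 signalling, varied least. Its means ran from 9.29 ± 0.13 (SD, n = 3) in homeostatic Foxp3+ cells to 9.89 ± 0.01 (n = 2) in LP Tconv cells. In the LP pair the Treg arrays, 9.70 and 9.71, lay below the Tconv arrays, 9.89 and 9.88, a log2 fold change of -0.18 ± 0.25 (SE) that did not pass the test (limma adjusted p = 1.00).

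Among the feedback inhibitors, Socs2 and Cish were the members that passed the test in a comparison of Foxp3+ or CD25+ cells with their partners. In the homeostatic system 1 of the 8 genes passed, Socs2, against 1.76% of all 12516 genes tested. In the DEC system 2 of 8 passed, Socs2 and Cish, against 0.495% of all genes. In the LP pair 0 of 8 passed by limma, against 2.7% of all genes, and Socs2 alone had an unadjusted p under 0.05. All 3 calls were rises, beside 0.751% of all genes called higher in the homeostatic and 0.399% in the DEC comparison.

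**Figure D2:**
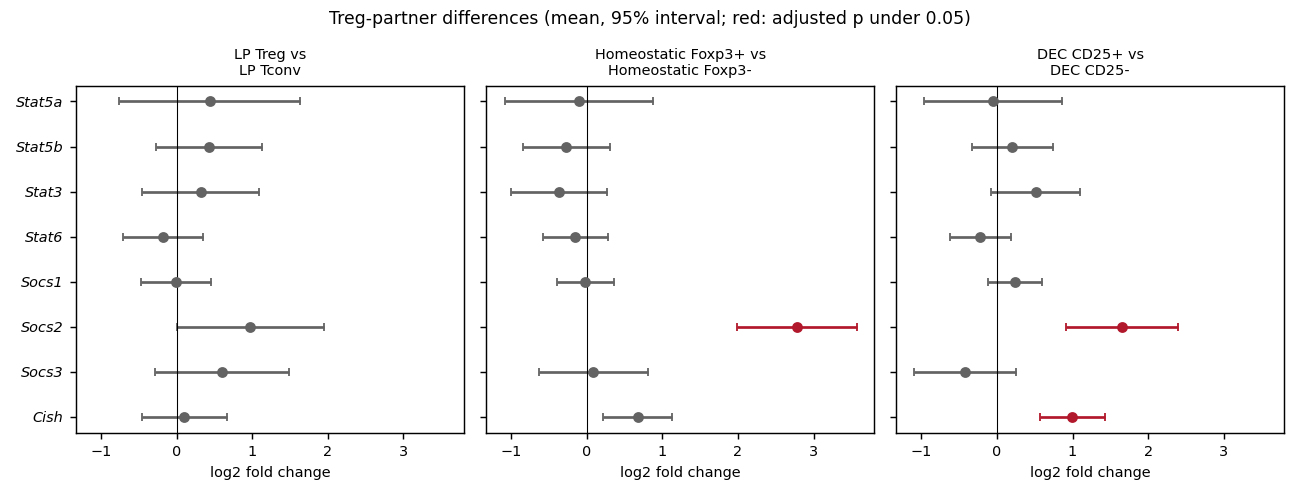
Log2 fold change of the 8 genes in the 3 comparisons of Foxp3+ or CD25+ cells with their partners; points are estimates, bars are 95% intervals, and red marks an adjusted p under 0.05. Socs2 lies at 0.97, 2.77 and 1.65 in the LP, homeostatic and DEC comparisons, and Cish at 0.10, 0.67 and 1.00.

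Socs2 encodes a SOCS-box protein known for restraining growth hormone signalling, and its gene is a known STAT5 target. In homeostatic Foxp3+ cells it was at 10.90, 10.94 and 10.89, and in Foxp3- cells at 8.07, 8.51 and 7.84. The groups were far apart, and the Foxp3+ arrays differed among themselves by less than any other group of 3 or 4. The log2 fold change was 2.77 ± 0.38 (SE; 95% interval 1.98 to 3.57), a 6.84-fold rise (limma adjusted p = 0.000329). By replicate number the differences were 2.83, 2.44 and 3.05. The myeloid sums given above ran lower in Foxp3+ than in Foxp3- arrays and overlapped, with 12 of the 13 genes above the filter in both and Itgam below it. The sums of 5 CD8 T and NK cell genes were 451 to 1320 in Foxp3+ and 2238 to 2484 in Foxp3- arrays, with Cd8b1 below the filter in both. Their part in the result was not tested.

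In DEC CD25+ cells Socs2 was at 9.15, 9.88 and 9.63, and in DEC CD25- cells at 8.19, 8.25, 6.57 and 8.59. The groups did not overlap, and the value of 6.57, from the steep-Gapdh array, stood far below the rest. The rise was 1.65 ± 0.35 (SE; 95% interval 0.91 to 2.40), or 3.14-fold (limma adjusted p = 0.0436). Without that array it was 1.21 (adjusted p = 0.0220), and without both dim arrays 1.33 (adjusted p = 0.0282). It missed the threshold without DEC CD25+ replicate 2 (1.49, adjusted p = 0.356) or replicate 3 (1.62, adjusted p = 0.176). The myeloid sums ran higher in CD25+ than in CD25- arrays, with 10 and 7 of the 13 genes above the filter. Itgam, S100a8 and S100a9 were below it in both. Among the CD25+ arrays the sums had the same order as Socs2. Among the CD25- arrays they had it in replicates 1, 2 and 4, at 1155, 2711 and 2988, but not with replicate 3, the steep-Gapdh array, at 2232. The part of these cells in the result was not tested.

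In the gut Socs2 was at 9.41 and 9.13 in LP Treg cells and at 8.44 and 8.16 in LP Tconv cells. These arrays did not overlap either, which held for 3 of the 8 genes (Socs2, Stat5a and Stat6) against 30.9% of all genes. The log2 fold change, 0.97 ± 0.46 (SE; 95% interval 0.00037 to 1.95), did not pass the test across genes (limma adjusted p = 0.573).

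The partner cells of the systems differed in Foxp3. It was at 7.97 ± 0.71 (SD, n = 4) in DEC CD25- cells, above the filter, at 4.65 ± 0.11 (n = 2) in LP Tconv cells and at 4.76 ± 0.05 (n = 3) in homeostatic Foxp3- cells. Whether the Socs2 difference varied between systems was tested as an interaction, and no member passed in any of the 3 (limma, 0 of 8 each). Homeostatic minus DEC gave 1.12 ± 0.52 (SE, adjusted p = 0.583) against 0.336% of all genes called. LP minus homeostatic gave -1.80 ± 0.60 (adjusted p = 0.321) against 0.775%, and LP minus DEC gave -0.68 ± 0.58 (adjusted p = 0.722) against 1.01%. The members with an unadjusted p under 0.05 were Socs2 and Stat3 in the first, Socs2 in the second and Cish in the third. Without both dim DEC arrays, which are not part of LP minus homeostatic, the Socs2 estimate there stayed at -1.80 and its SE fell to 0.36. It then came under the threshold (limma adjusted p = 0.0140), while the genes called over all genes rose from 97 to 179.

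Set in order, the means of Socs2 were 10.91 ± 0.03 (SD, n = 3) in homeostatic Foxp3+ cells, 10.07 ± 0.37 in LN CD103+Klrg1- cells, 9.74 ± 0.26 in LN CD103-Klrg1- cells, 9.55 ± 0.37 (n = 3) in DEC CD25+ cells, 9.27 ± 0.20 in LP Treg cells and 9.24 ± 0.50 in LN CD103+Klrg1+ cells. The partner cells followed, at 8.30 ± 0.20 in LP Tconv, 8.14 ± 0.34 (n = 3) in homeostatic Foxp3- and 7.90 ± 0.90 (n = 4) in DEC CD25- cells, with n = 2 where none is given. From the second to the sixth place, and among the partners, arrays of neighbouring groups overlapped. The 14 arrays of cells sorted as Foxp3+ or CD25+ ran from 8.89 to 10.94 with a median of 9.72, and the 9 arrays of cells sorted as Foxp3- or CD25- from 6.57 to 8.59 with a median of 8.19. Socs2 was the only member whose 14 arrays all lay above the 9, and 1449109_at its only probe set to do so; 17 of all genes tested, 0.136%, did so, among them the sort genes Foxp3 and Il2ra. This split over systems was looked at after the values were seen.

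Socs2 has 6 probe sets, which did not all follow that order. In the homeostatic comparison 1449109_at, which stands for the gene, 1418507_s_at and 1446085_at passed when every probe set was tested (limma, against 1.39% of all probe sets). Their log2 fold changes were 2.77, 3.03 and 2.14. The size of the last is less sure, since the Foxp3- arrays, at 5.13, 4.53 and 4.81, lay below the filter. The probe sets 1438470_at (0.75, adjusted p = 0.396) and 1442586_at (0.21, adjusted p = 1.00) did not pass, and 1441476_at, at 3.59 to 4.65 over all arrays, was too dim to be tested. Averaging the probe sets gave a log2 fold change of 1.52 (adjusted p = 2.26e-06).

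In the DEC comparison no Socs2 probe set passed in that fit, against 0.379% of all probe sets: 1449109_at had an adjusted p of 0.0514 and 1418507_s_at a log2 fold change of 1.41 with an adjusted p of 0.131. The DEC CD25- replicate 3 array, lowest of its group on 1449109_at at 6.57, was the highest of its group on 1418507_s_at, at 8.77. Over the 23 arrays these probe sets correlated at r = 0.81, a description only, since the arrays share groups.

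**Figure D3:**
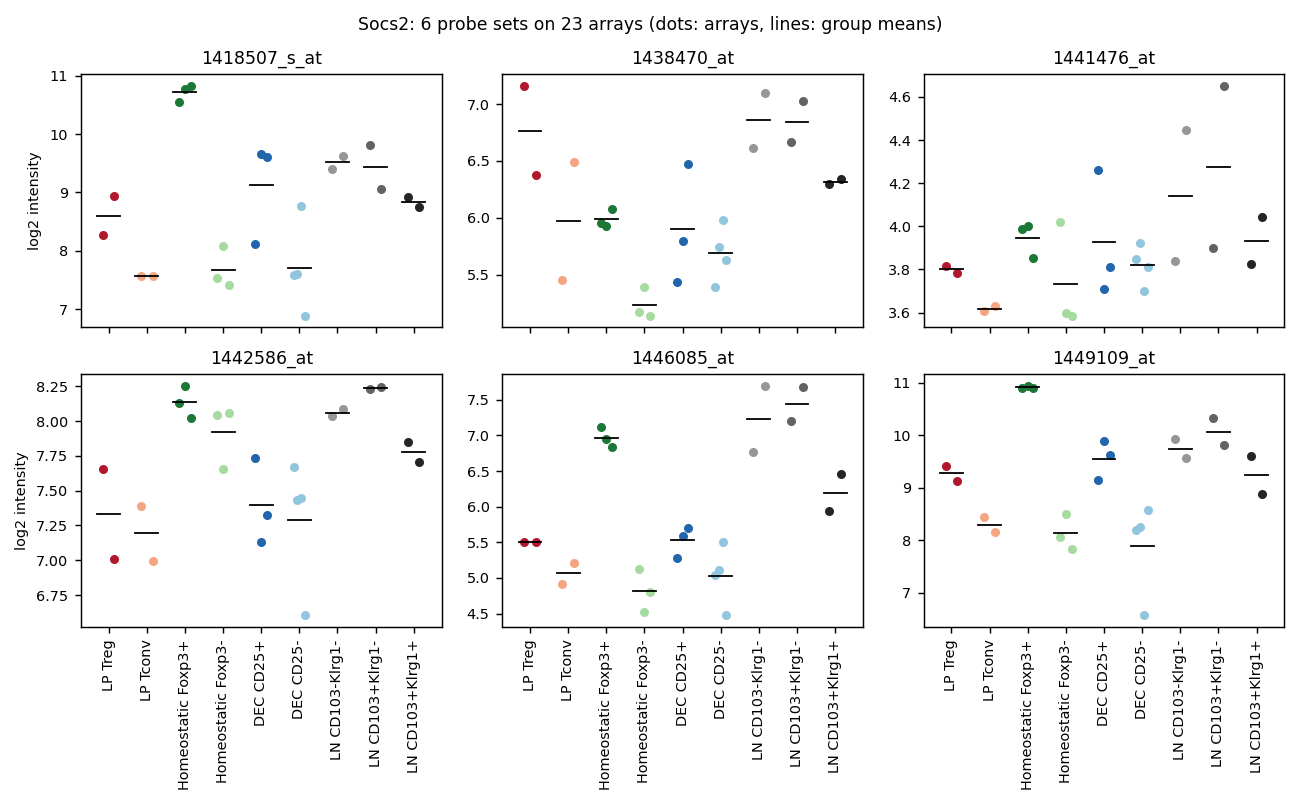
Log2 intensity of the 6 Socs2 probe sets on every array, by group; dots are arrays, black lines are group means, and each panel has its own vertical scale. On 1449109_at and 1418507_s_at the homeostatic Foxp3+ arrays lie highest, whereas on 1446085_at they lie beside the LN CD103- and CD103+Klrg1- arrays, and 1441476_at stays between 3.59 and 4.65.

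Cish encodes CIS, which binds phosphorylated sites of the interleukin-2 receptor. In DEC CD25+ cells it was at 11.07, 11.44 and 11.26, and in DEC CD25- cells at 10.02, 10.67, 10.10 and 10.25. The groups did not overlap, and both dim arrays lay among the other CD25- values. The rise was 1.00 ± 0.20 (SE; 95% interval 0.57 to 1.43), or 2.00-fold (limma adjusted p = 0.0330). The myeloid sums were 2307, 5656 and 5206 in the CD25+ arrays and 1155, 2711, 2232 and 2988 in the CD25- arrays, in replicate order. Among the CD25+ arrays they had the same order as Cish, as they had for Socs2, and among the CD25- arrays they did not. Their part in the result was not tested. Fitted with a replicate block, the Cish rise was 0.99 with an adjusted p of 0.0533, so that the call was lost. It was lost as well without DEC CD25+ replicate 2 (0.91, adjusted p = 0.275) or 3 (1.00, adjusted p = 0.127), without DEC CD25- replicate 3 (0.94, adjusted p = 0.0692) or 4 (0.99, adjusted p = 0.0718), and without both of the latter (0.91, adjusted p = 0.187). The median log2 fold change of all genes was 0.16 here. Quantile normalization moved that median to -0.05 and the Cish rise to 0.73 (adjusted p = 0.165), and cyclic loess moved them to -0.02 and 0.68 (adjusted p = 0.193). The Socs2 rise became 1.45 (adjusted p = 0.0617) and 1.36 (adjusted p = 0.0458).

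In homeostatic cells Cish was at 10.79, 11.38 and 11.09 with Foxp3 and at 10.26, 10.43 and 10.56 without. These groups did not overlap either, which held for 3 of the 8 genes (Cish, Socs2 and Stat3) against 22.3% of all genes. The log2 fold change of 0.67 ± 0.22 (SE) did not pass the test (limma adjusted p = 0.193). The myeloid sums, 3579, 11494 and 6923 in replicate order, had the same order as Cish among the Foxp3+ arrays. Among the Foxp3- arrays, at 6146, 18425 and 8042, they did not. The part of these cells was not tested. In DEC cells the genes without overlap were Socs2 and Cish, 2 of 8 against 5.46% of all genes.

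In the gut, Cish did not separate the groups. It was at 11.08 and 10.95 in LP Treg cells and at 10.54 and 11.29 in LP Tconv cells, a log2 fold change of 0.10 ± 0.27 (SE, limma adjusted p = 1.00). The LP Tconv arrays lay on either side of the Treg arrays. Cish in the lymph node subsets stayed between 10.73 and 11.22. In the order of means, from DEC CD25+ at 11.26 to LN CD103+Klrg1- at 10.86, each group's arrays overlapped those of its neighbours. The means of homeostatic Foxp3- cells, 10.41, and DEC CD25- cells, 10.26, came next, 0.44 below that of LN CD103+Klrg1- cells for the first. Arrays of both overlapped those of LP Tconv, whose replicate 1 was at 10.54.

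**Figure D4:**
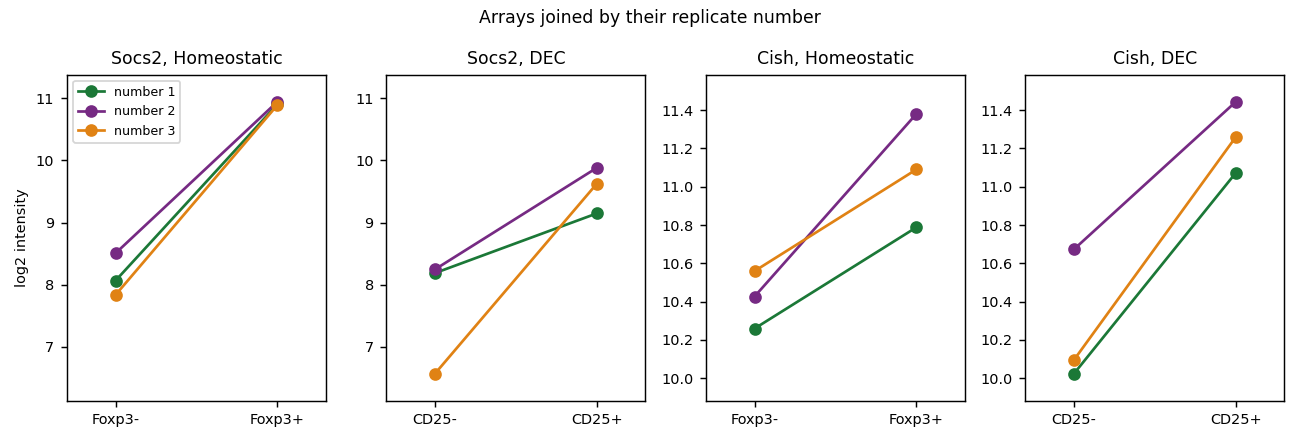
Log2 intensity of Socs2 and Cish on homeostatic and DEC arrays, with arrays of the same replicate number joined by a line; DEC CD25- replicate 4 has no partner. Every line rises toward the Foxp3+ or CD25+ array, by 2.44 to 3.05 for homeostatic Socs2, 0.96 to 3.05 for DEC Socs2, 0.53 to 0.95 for homeostatic Cish and 0.77 to 1.16 for DEC Cish.

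Promoter sequence is shown for the members whose start region holds the palindrome TTCNNNGAA, the core of the STAT5 recognition motif, because Cish rose in DEC CD25+ cells and Socs3, which also holds it, did not pass in any comparison. RefSeq windows on GRCm38.p6, 9 in all and each from 250 bases before to 50 after an annotated start, were at hand for 7 of the 8 genes, all but Socs2. The motif, which reads the same on both strands, was found in 2 of them, Cish and Socs3, with its letters in capitals here (5′ to 3′ on the gene's strand), at chr9:107296654-107296683 on the plus strand and at chr11:117969502-117969531 on the minus strand:
Cish: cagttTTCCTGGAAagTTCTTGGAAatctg
Socs3: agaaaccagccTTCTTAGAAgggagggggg
The Cish window holds 2 matches side by side, beginning at the annotated start, and the Socs3 match begins 154 bases before the start its window was built on. The Socs3 window, which ends at chr11:117969616, lies inside the annotated gene, which runs to chr11:117970336. The Stat5b windows lie inside their gene as well, so the outer ends of these genes were not covered. Of all 32851 windows of that length 8.30% hold at least 1 match and 0.457% hold 2 or more, and the STAT6 form of the motif, with 1 more base in its middle, was in none of the members' windows and in 6.95% of all. A match describes the letters and shows no binding.

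Socs3, the inhibitor induced by STAT3-activating cytokines, was highest in DEC cells whether or not they carried CD25. It was at 12.53, 11.48 and 12.39 in CD25+ arrays and at 12.52, 12.44, 12.68 and 12.60 in CD25- arrays, against 9.04 to 11.60 on the 16 others. On each of its 3 probe sets 6 of the 7 DEC arrays lay above all others. Within the DEC system the log2 fold change was -0.42 ± 0.32 (SE, limma adjusted p = 0.545), and the arrays overlapped. As for Stat5a, the DEC arrays differ from the others in strain, host, treatment and Xist level, and these cannot be told apart.

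In homeostatic cells Socs3 was at 11.05, 11.43 and 11.60 with Foxp3 and at 11.05, 11.55 and 11.22 without, a log2 fold change of 0.09 ± 0.34 (SE, limma adjusted p = 1.00). In the gut it was at 10.23 and 10.86 in LP Treg cells and at 10.85 and 9.04 in LP Tconv cells, so the partner arrays differed from each other by more than the groups did. The log2 fold change of 0.60 ± 0.42 (SE) did not pass (limma adjusted p = 0.919). Its direction rested on which Tconv array was kept: without LP Tconv replicate 2 it was -0.30, and without replicate 1 it was 1.50 with an adjusted p of 0.0259. Either way LP Tconv is then a single array, assumed to vary like the other groups. The direction also differed between probe sets, with overlapping arrays on each. On 1416576_at LP Treg cells (7.42 ± 0.08 SD) lay below LP Tconv cells (7.78 ± 0.48), and on 1456212_x_at above them (9.68 ± 0.30 and 8.90 ± 1.14). Over the 23 arrays these correlated at r = 0.54 and 0.98 with 1455899_x_at, which stands for Socs3. The LP Tconv arrays correlated at r = 0.926 across genes, which are not replicates, and the LP Treg arrays at 0.976.

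Socs1, which inhibits Janus kinases directly, was dim throughout, between 6.19 and 7.71, close to the filter at 6.27. It was highest in LN CD103-Klrg1- cells, at 7.36 and 7.71, and lowest in DEC CD25- cells, at 6.75, 6.58, 6.19 and 6.82. Its log2 fold changes were -0.01 ± 0.22 (SE) in the LP, -0.02 ± 0.18 in the homeostatic and 0.24 ± 0.17 in the DEC comparison, and none passed (limma adjusted p from 0.515 to 1.00).

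Among the lymph node subsets no member passed the test in any pair (limma). For CD103+Klrg1- over CD103-Klrg1- cells this was 0 of 8 against 0.0959% of all genes, for CD103+Klrg1+ over CD103+Klrg1- cells 0 of 8 against 0.647%, and for CD103+Klrg1+ over CD103-Klrg1- cells 0 of 8 against 2.1%. At an unadjusted p under 0.05 the counts were 0, 0 and 1, the last being Socs1. Socs1, in the order CD103-Klrg1-, CD103+Klrg1- and CD103+Klrg1+, was at 7.36 and 7.71, at 7.28 and 7.11 and at 7.04 and 7.01, but the log2 fold change of -0.52 ± 0.22 (SE) between the ends did not pass (adjusted p = 0.567). Socs2 was at 9.93 and 9.56, at 10.33 and 9.80 and at 9.60 and 8.89 in the same order, and its log2 fold change of -0.83 ± 0.46 between the CD103+ subsets did not pass (adjusted p = 1.00). In the pair farthest apart in the sort, 5 of the 8 genes did not overlap between the groups, against 36.8% of all genes; in the first and second pairs it was 2 against 29.7% and 3 against 31%.

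Between LP Treg cells and the lymph node Treg subsets, likewise, 0 of 8 members passed (limma), against 4.55%, 2.63% and 2.05% of all genes for the lymph node cells with neither marker, with CD103 alone and with both. These comparisons share the LP Treg arrays, also with the LP pair, and the lymph node arrays with the pairs above. The counts at an unadjusted p under 0.05 were 1, 0 and 0, the first being Socs1, whose LP Treg values, 6.72 and 7.0, lay below the 7.36 and 7.71 of CD103-Klrg1- cells (log2 fold change -0.68 ± 0.22 SE, adjusted p = 0.104). Without both dim DEC arrays, which are not part of this comparison, the Socs1 estimate stayed at -0.68 and its SE fell to 0.19 (limma adjusted p = 0.0358). The genes called over all genes then rose from 570 to 1082. The members without overlap numbered 3, 3 and 4, against 53.2%, 56.8% and 49.5% of all genes.

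Other probe sets of the same genes passed where the brightest did not. Socs2 on 1446085_at was at 5.51 and 5.50 in LP Treg cells, at 6.77 and 7.70 in LN CD103-Klrg1- cells, at 7.20 and 7.67 in CD103+Klrg1- cells and at 5.94 and 6.45 in CD103+Klrg1+ cells. It was lower in LP Treg cells than in the CD103-Klrg1- subset (a fall of 1.73 on the log2 scale, limma adjusted p = 0.00347, against 5.03% of all probe sets). It was lower there than in the CD103+Klrg1- subset as well (a fall of 1.93, limma adjusted p = 0.00254, against 3.2%). The LP level lay below the filter, so the sizes of these falls are less sure. On 1449109_at the corresponding log2 fold changes were -0.47 ± 0.46 (SE) and -0.79 ± 0.46, neither of which passed.

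Stat3 on 1459961_a_at was at 11.25 and 10.38 in LP Treg cells and at 8.82 to 9.33 in lymph node cells, a rise of 1.90 over the CD103-Klrg1- subset (limma adjusted p = 0.0249) and of 1.85 over the CD103+Klrg1- subset (adjusted p = 0.0425). Over the CD103+Klrg1+ subset its log2 fold change of 1.60 did not pass (adjusted p = 0.104). This probe set correlated at only r = 0.12 over the arrays with 1460700_at, which stands for Stat3, whereas 1426587_a_at correlated with it at 0.90. Stat5b on 1422102_a_at rose by 0.85 over the CD103+Klrg1- subset (adjusted p = 0.0229) and by 0.82 over the CD103+Klrg1+ subset (adjusted p = 0.0343, against 2.36% of all probe sets), and its log2 fold change of 0.66 over the CD103-Klrg1- subset did not pass (adjusted p = 0.0654). The Stat5b probe sets correlated at r = 0.33, so the results for Stat3 and Stat5b rest on which probe set is read.

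The rest of the pathway was described from 7 lists. Other SOCS genes, 4 tested, had no call in any of the comparisons or interactions (limma), as had the 4 Janus kinases in the 3 partner comparisons. Of the Janus kinases Jak2, which serves many cytokine receptors, was higher in LP Treg cells than in each lymph node subset, by 1.52 ± 0.27 (SE), 1.34 ± 0.27 and 1.10 ± 0.27 (limma adjusted p = 0.00213, 0.00918 and 0.0400). Of 2 other STAT genes Stat4, the interleukin-12 factor, was 1.82 ± 0.45 higher in LP Treg than in CD103+Klrg1+ cells (adjusted p = 0.0409). Of 10 phosphatases and PIAS inhibitors Ptpn6, encoding the phosphatase SHP-1, was lower in LP Treg than in CD103-Klrg1- cells (-1.15 ± 0.31, adjusted p = 0.0402). The B cell sums given above were higher on lymph node than on LP Treg arrays, and their part here was not tested.

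Among the receptors, Il2ra, encoding CD25 itself, rose in all 3 partner comparisons, by 3.60 ± 0.38 (SE) in LP, 4.00 ± 0.31 in homeostatic and 3.77 ± 0.29 in DEC cells, where CD25 was the sort marker. It was 1 of 6 common gamma chain receptor genes tested, whose median log2 fold changes were 0.66, 0.25 and 0.10 beside -0.01, -0.03 and 0.16 over all genes. Il7r, the interleukin-7 receptor chain, fell in DEC CD25+ cells (-0.97 ± 0.17, limma adjusted p = 0.0128) and rose in CD103+Klrg1+ over CD103-Klrg1- cells (1.07 ± 0.23, adjusted p = 0.0128). Of 6 receptor genes linked to STAT3, 0 passed in the partner comparisons. Il12rb1, a chain of the interleukin-12 and interleukin-23 receptors, was higher in LP Treg cells than in each lymph node subset, by 2.16, 1.69 and 1.45 (adjusted p = 5.08e-05, 0.00113 and 0.00368). Il6ra, the interleukin-6 receptor, was lower there than in the CD103-Klrg1- and CD103+Klrg1- subsets (-2.63 and -2.65, adjusted p = 0.00202 and 0.00378).

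Of 15 further genes known as STAT5 targets, 3 passed the test in the LP, 4 in the homeostatic and 2 in the DEC comparison, where 2.7%, 1.76% and 0.495% of all genes did. In LP Treg cells 2 rose, Foxp3 and Il2ra, and 1 fell, Pim2, a survival kinase (-1.88 ± 0.32 SE, limma adjusted p = 0.00162). In homeostatic Foxp3+ cells 3 rose, Foxp3, Il2ra and Prdm1, which encodes Blimp-1 (1.59 ± 0.34, adjusted p = 0.0156), and Pim2 fell (-1.08 ± 0.26, adjusted p = 0.0368). In DEC CD25+ cells Il2ra and Foxp3 rose, Foxp3 by 2.49 ± 0.28. The Foxp3 difference was larger in the other systems, where the partner cells held less of it. LP minus DEC gave 4.07 ± 0.46 (limma adjusted p = 0.00016) and homeostatic minus DEC 3.17 ± 0.41 (limma adjusted p = 0.000658). The list's median log2 fold changes were 0.64, 0.37 and 0.47, beside the all-gene medians given above. Foxp3 and Il2ra are sort genes, and these counts include them. The remaining calls were a fall of Pim2 in the LP comparison, a rise of Prdm1 and a fall of Pim2 in the homeostatic comparison and none in the DEC comparison. Il2ra, Il2rb and Il4ra are in this list and in that of the common gamma chain receptors, so the medians of the lists are not independent. In CD103+Klrg1+ over CD103-Klrg1- cells Prdm1 rose by 3.13 ± 0.41 and the survival gene Bcl2 fell by 2.73 on the log2 scale (adjusted p = 0.000136 and 0.00406). In LP Treg over CD103-Klrg1- cells Prdm1 rose by 3.25 ± 0.41, while Bcl2 and Lta, encoding lymphotoxin, fell by 3.15 and 1.64 on the log2 scale (adjusted p = 8.61e-05, 0.000887 and 0.0195).

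The genes whose 9 group means most resembled those of Socs2 were Ppa1 (r = 0.92), Il2ra (0.90) and Cdc27 (0.89), as a description over 9 groups that share arrays. For Stat5a they were Slc2a1, Aff1 and Taf4b (each 0.97), for Socs3 Lhfpl3 (0.96), Dnah6 (0.96) and Tcf15 (0.95), and for Cish Slc25a30 (0.89), Emsy (0.86) and Wdr37 (0.86). Lhfpl3 stayed dim, with means from 4.52 to 6.81. Among the members Stat5a and Socs3 correlated at 0.79, both being high on DEC arrays, and Socs2 and Cish at 0.70.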

How the data were processed

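The deposited values are intensities on a linear scale: per the series' design text, the authors ran RMA in GenePattern, whose version is not given in the sources used here. RNA was amplified in 2 rounds, per the labels' protocols. Log2 was taken with no pseudocount. Annotation named 34945 of 45101 probe sets by 1 symbol; the 932 with several symbols were not used. Tested were the 12516 genes with a group mean above the table's median (77.0 intensity units, 6.27 on the log2 scale) or, with every probe set fitted, 21612 probe sets. One model held all 23 arrays and a mean per group (limma 3.58.1, R 4.3.3, lmFit and eBayes, with 14 residual and 3.48 prior degrees of freedom); p-values, two-sided, were adjusted by Benjamini-Hochberg over all genes tested, with a threshold of 0.05. The script was tested on simulated data. Alternatives changed the normalization, filter, offset, probe-set rule, weights, block and arrays kept. Python 3.11.15 (pandas 2.3.3) wrote the tables.

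The number of arrays limits the precision, and the spread is one between arrays, each holding RNA pooled from several mice. No source states separate experiments, so p-values may measure technical spread only. Residuals of same-number arrays correlated at 0.66, 0.58 and 0.49 in the homeostatic and 0.39, 0.51 and 0.38 in the DEC groups. Numbers were therefore read as pairs there in the differences by replicate number and in the replicate block, and the labels do not settle this. The main fit held no block, so its p-values, intervals and counts are unpaired. With the block, Socs2 kept its DEC call (limma adjusted p = 0.0166) and Cish lost it (limma adjusted p = 0.0533). Named were the 8 genes in every comparison, called members of the 7 lists (up to 4 with the smallest p) and the 3 genes most like each of the 4 members of widest span. The members and lists were chosen with earlier results of these data known.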

Additional observations from a re-analysis of the deposited data

Results flagged for a closer look

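In groups of 4 or more arrays, which here means DEC CD25- alone, the gap between the end array and its neighbour was set against the group's range for each of the 21 probe sets, and 2 went past Dixon's 95% critical value for 4 samples, where chance flags about 1 in 20 groups. Stat6 on 1426353_at was at 9.40 in replicate 1, below 10.08, 9.97 and 10.07 in the others. Stat3 on 1426587_a_at was at 7.29 in replicate 3, the array with the steepest Gapdh 3′-to-5′ difference.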

How the results depend on the processing

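The count of members called, the result of each comparison and interaction, stayed as reported in 182 of 208 alternatives and moved in 26. In the DEC comparison, where 2 were called, it was 0 with quantile normalization and with only the arrays compared, and 1 with cyclic loess, with no filter, with every probe set fitted, with the replicate block and without both dim DEC CD25- arrays; leaving out 1 array at a time gave 0 to 2. In the homeostatic comparison it was 2 with array weights, Cish being added (adjusted p = 0.00609). In the LP comparison it was 0 to 1 with 1 array left out, and in LP minus DEC 0 to 1, by Socs3 without LP Tconv replicate 1, which leaves that group 1 array, assumed to vary like the other groups. For LP Treg over LN CD103-Klrg1- it was 1 with the mean of probe sets, with array weights and without both dim arrays and 2 with every probe set; over CD103+Klrg1- it was 1 and 3 with the mean of and with every probe set; over CD103+Klrg1+ it was 1 with every probe set. LP minus homeostatic gave 1 with the mean of probe sets, with only the arrays compared and without both dim arrays, and homeostatic minus DEC gave 1 with the mean of probe sets and with array weights. The number of all genes called moved too. In the DEC comparison it was 62 in the main fit, 83 with quantile normalization and 5 with only the arrays compared. In the homeostatic comparison it rose from 220 to 1236 with array weights. For LP Treg over LN CD103-Klrg1- it rose from 570 to 1494 with array weights and to 1082 without both dim arrays. For homeostatic minus DEC it rose from 42 to 292 with array weights. The cause of these moves was not tested.

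Socs2 was called in the homeostatic comparison under all 17 alternatives run (log2 fold change 1.52 to 2.96, limma adjusted p 4.14e-09 to 0.00324). In the DEC comparison Socs2 was called in 12 of 18 (0.66 to 1.88, adjusted p 0.00552 to 0.813) and Cish in 9 of 18 (0.68 to 1.14, adjusted p 0.0146 to 0.558). The replicate block changed no other call of a member. Same-number residuals correlated at -0.07 in the LP pair, and at 0.39, 0.37 and 0.72 in the lymph node pairs. The labels do not say whether same-number lymph node arrays share a pool of mice, so a pairing there remains possible. No member was called in the lymph node pairs with the replicate block. Same-number residuals of LP Treg and LN CD103+Klrg1- arrays correlated at -0.19. Crossing their numbers, an alternative chosen after seeing the data, left 0 members called.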
